A study of Mus musculus with 8 samples.

Results

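The Wdfy genes of the mouse, Wdfy1, Wdfy2, Wdfy3 and Wdfy4, were followed in RNA-seq libraries of the embryonic dorsal cortex. They were found by their symbols, and all 4 were among the 23284 genes counted. Wdfy1 was chosen by its CPM, which were far higher in the libraries labelled ErbB4 -/-, so its difference between the genotypes is described here and not tested. The other 3 belong to the list through their family name.

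The study sequenced polyA RNA from the cortex of mouse embryos at E15.5, in 4 WT libraries and 4 libraries of genotype ErbB4 -/-. The paper's methods name C57BL/6 for its gene-edited lines and do not state the background of the WT or ErbB4 -/- embryos. ErbB4 is a receptor tyrosine kinase for neuregulins, and the comparison asked which cortical genes change when it is lost. The ErbB4 -/- line lacks the receptor from the germline on and is kept alive by ErbB4 expressed in the heart under the α-MHC promoter. Embryos came from breeding cages of homozygous lines, so the genotype and the line cannot be told apart, and nothing in the labels says whether embryos shared a litter. Meninges and ganglionic eminences had been dissected away.

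Some properties of the libraries bear on all values. They had from 28205703 to 48871480 counts, and log2 CPM (reads scaled to a common library size) of libraries of 1 genotype correlated at 0.987 or more across genes. Erbb4 itself was not lower in the libraries labelled ErbB4 -/- (18.3 ± 6.81 CPM in WT, 22.4 ± 1.92 in ErbB4 -/-, SD, n = 4 each, log2 fold change 0.28, SE 0.23, edgeR adjusted p = 0.812), and gene counts do not show which exons were read, so genotypes below are those of the labels. WT replicate 1 stood apart, with low values for long transcripts. It had 8.99 CPM of Erbb4, against 19.2 to 25.3 in the other WT libraries and 20.7 to 24.6 in ErbB4 -/- libraries. The log2 fold change of Erbb4 rests in part on that library. WT replicates 1 to 3 had 983 to 1687 CPM of Xist and the other 5 libraries had 2.70 to 3.82, with Ddx3y the other way round. High Xist was thus found in WT libraries only, and apart from WT replicate 4 this pattern and the genotype cannot be told apart.

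Proteins of the FYVE class carry a zinc finger that binds phosphatidylinositol 3-phosphate (PI3P), the lipid that marks early endosomes and growing autophagosomes. Wdfy1 and Wdfy2 are short proteins of WD40 repeats and a FYVE finger that sit on endosomes. Wdfy1 is known as an adaptor that helps Toll-like receptors 3 and 4 (TLR3, TLR4) to engage TRIF, the adaptor encoded by Ticam1, and Wdfy2 binds Akt and atypical protein kinase C. Wdfy3, also called Alfy, is a giant protein with a BEACH domain that delivers ubiquitinated aggregates to autophagosomes, and it is required for normal growth of the forebrain and its axon tracts. Wdfy4 is its closest relative and is known from dendritic cells, where it serves cross-presentation of antigens.

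The stretch of coding sequence that makes these genes a FYVE family is shown first. The search was for a basic residue, any residue, a pair of histidines, a cysteine and a basic residue, in the longest coding transcript of each gene (GENCODE annotation of mm9). It had 1 match in each of Wdfy1, Wdfy2 and Wdfy3, and the capitals mark its codons in the 108 bases printed.
Wdfy1, coding bases 883 to 990: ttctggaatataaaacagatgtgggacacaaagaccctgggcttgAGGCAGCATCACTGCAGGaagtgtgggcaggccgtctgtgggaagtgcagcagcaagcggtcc
Wdfy2, coding bases 883 to 990: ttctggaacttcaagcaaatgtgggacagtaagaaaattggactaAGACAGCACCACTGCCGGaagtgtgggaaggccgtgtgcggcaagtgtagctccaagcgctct
Wdfy3, coding bases 10369 to 10476: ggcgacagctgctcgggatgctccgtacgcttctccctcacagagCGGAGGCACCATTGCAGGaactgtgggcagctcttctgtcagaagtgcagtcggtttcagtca

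In these 108 bases Wdfy1 and Wdfy2 differed at 26 positions, Wdfy1 and Wdfy3 at 55, and Wdfy2 and Wdfy3 at 60. The signature lay at residues 310 to 315 in both short proteins and at residues 3472 to 3477 in Wdfy3, near its carboxyl end. Wdfy4 held no match to these letters. Over the whole protein, Wdfy1 (410 residues) and Wdfy2 (400 residues) shared 62.3% of 400 aligned residues. Wdfy3 (3526 residues) and Wdfy4 (3149 residues) shared 38.7% of 3084 aligned residues. At the level of 50-base windows, the length of the study's single-end reads, none of the 23378 windows inside exons of 1 transcript per gene was shared between members. Exons of their other transcripts were not searched.

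Wdfy1 is itself partly duplicated in the reference genome. The gene (ENSMUSG00000073643.4) lies on the minus strand at chr1:79698837-79772718, on the same chromosome as Erbb4. Within it a stretch of 7279 bases occurs in tandem with 0 mismatches, the copy nearer the 5′ end at chr1:79719448-79726726 and the copy nearer the 3′ end at chr1:79712006-79719284, with 163 bases between them. Each copy holds the same 3 coding exons, which are printed once because both copies are identical at every base.
First duplicated exon, chr1:79726231-79726285 and chr1:79718789-79718843: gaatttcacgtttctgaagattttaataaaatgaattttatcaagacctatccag
Second duplicated exon, chr1:79723141-79723291 and chr1:79715699-79715849: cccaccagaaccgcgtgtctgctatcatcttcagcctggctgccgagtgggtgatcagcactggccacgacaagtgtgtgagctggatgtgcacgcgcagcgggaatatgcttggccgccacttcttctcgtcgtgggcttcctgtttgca
Last duplicated exon, chr1:79721220-79721332 and chr1:79713778-79713890: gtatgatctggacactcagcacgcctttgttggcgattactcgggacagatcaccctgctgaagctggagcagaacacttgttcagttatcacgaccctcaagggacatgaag

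These exons are 55, 151 and 113 bases long and encode residues 94 to 200. The annotation lists 4 full-length coding transcripts of 4551 bases that differ in which copy of each exon they use, and they encode 1 and the same protein. Of the 3963 windows of 50 bases inside exons of 1 of these transcripts, Wdfy1-001, 237 (5.98%) occurred at more than 1 place in the genome, with 172 matches to the other copy of an exon in the gene itself and 5627 matches elsewhere in the genome. For 1 transcript each of Wdfy2, Wdfy3 and Wdfy4 the number was 0 of 1423, 0 of 10991 and 0 of 7001 windows. How the study's counting treated reads with several places is not given in the sources used here, and its part in the Wdfy1 counts was not tested.

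**Figure D1:**
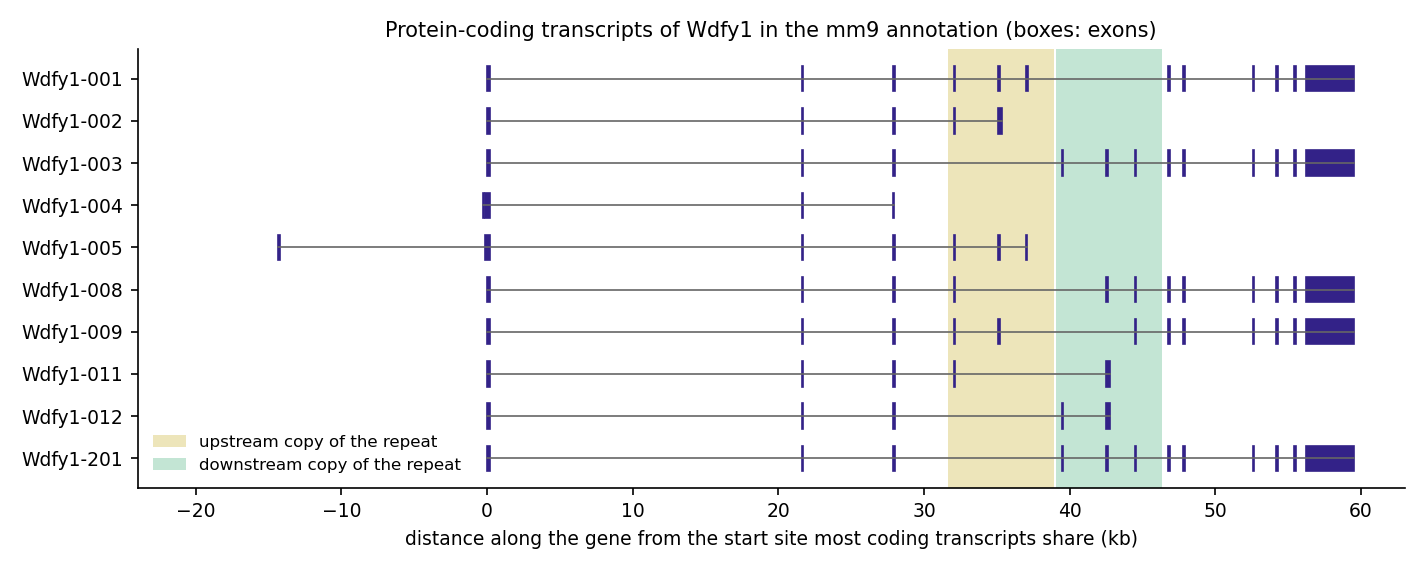
Protein-coding transcripts of Wdfy1 in the mm9 annotation, drawn 5′ to 3′ by distance in kb from the start site most of them share, with exons as boxes and the tandem copies of 7279 bases shaded. Each copy holds the 3 identical exons, and the full-length transcripts pass through one copy of each of them before the large last exon.

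Wdfy1 was several times higher in every library labelled ErbB4 -/- than in any WT library. In WT replicates 1 to 4 it had 20.7, 23.2, 22.1 and 22.1 CPM, which stand for 579, 724, 846 and 775 reads. The ErbB4 -/- replicates 1 to 4 had 110, 115, 115 and 107 CPM, or 5428, 3989, 4472 and 3384 reads. The groups did not overlap, and the lowest ErbB4 -/- library was 4.63-fold above the highest WT library. The means were 22.0 ± 1.05 and 112 ± 3.48 CPM (SD, n = 4 each), a 5.08-fold difference. The fitted log2 fold change was 2.34 (SE 0.061, 95% interval 2.21 to 2.48), the sixth highest among the 14696 genes tested. Since these values chose the gene, they carry no p-value. For the same reason the interval and the rank are a description and no test of the difference.

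With all libraries, Wdfy1 had the lowest coefficient of variation of the 4 genes in each genotype (4.79% in WT, 3.11% in ErbB4 -/-). In WT its place below Wdfy3 (20.3%) rests on WT replicate 1. Wdfy3 had 140 CPM in that library and 217 to 226 CPM in the other WT libraries. WT replicate 4, whose Xist and Ddx3y levels were those of the ErbB4 -/- libraries, had 22.1 CPM of Wdfy1, like the other WT libraries. In WT libraries 44.4% of the genes tested had a lower mean CPM than Wdfy1, and in ErbB4 -/- libraries 83.4% had. Over all alternative settings the log2 fold change was between 2.32 and 2.37.

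**Figure D2:**
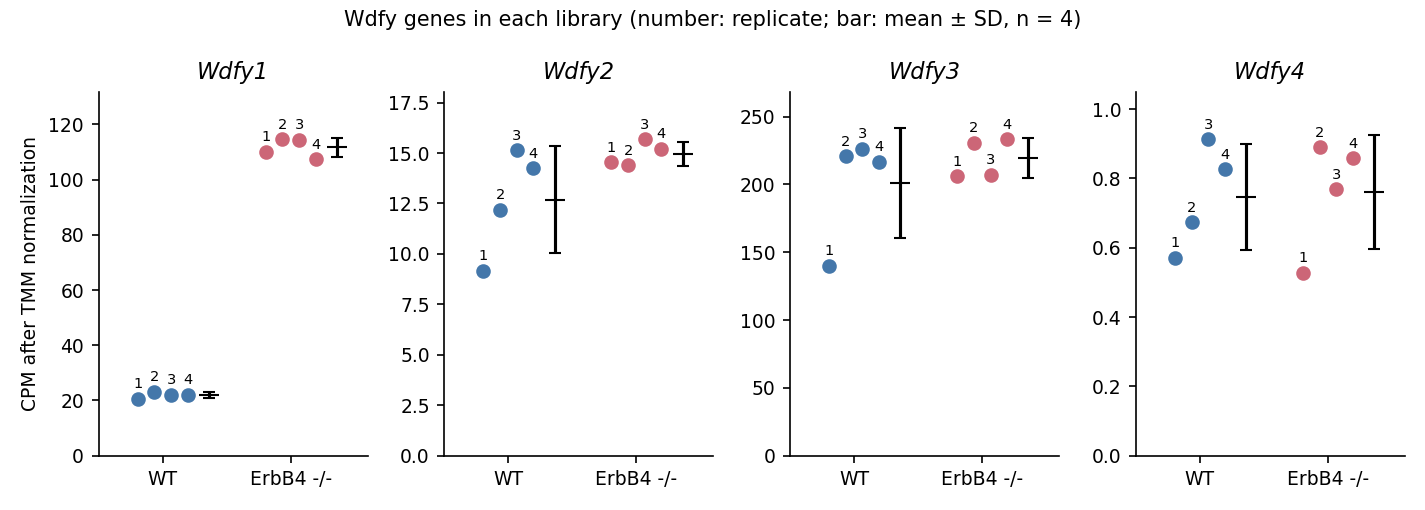
CPM of each Wdfy gene in every library (y axis, one panel a gene, each on its own scale from 0), with WT in blue, ErbB4 -/- in red, the replicate number above each point and the mean ± SD (n = 4) at the right. Wdfy1 sits at 20.7 to 23.2 CPM in WT and 107 to 115 in ErbB4 -/- libraries, while the groups overlap for the other 3 genes.

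Wdfy2 and Wdfy3 were not shown to differ, and in both the lowest library was WT replicate 1. Wdfy2 (ENSMUSG00000014547.9, plus strand, chr14:63456527-63575723) had 9.17, 12.2, 15.1 and 14.2 CPM in WT replicates 1 to 4. In the ErbB4 -/- replicates it had 14.6, 14.4, 15.7 and 15.2 CPM. The groups overlapped, since WT replicate 3 lay within the ErbB4 -/- range, and WT replicates 1, 2 and 4 lay below it, replicate 4 by the least. The means were 12.7 ± 2.65 and 15.0 ± 0.595 CPM (SD, n = 4 each), and the log2 fold change was 0.23 (SE 0.13, 95% interval −0.058 to 0.52, edgeR adjusted p = 0.81, exact two-sided permutation p = 0.114). Without WT replicate 1 it was 0.11 (edgeR adjusted p = 0.844). A rise of Wdfy2 as large as that of Wdfy1 lies outside this interval.

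Wdfy3 (ENSMUSG00000043940.7, minus strand, chr5:102261972-102498940) was the Wdfy gene with the most reads. It had 140, 221, 226 and 217 CPM in WT replicates 1 to 4, and 206, 231, 207 and 233 CPM in the ErbB4 -/- replicates. WT replicate 1 stood alone below, and the other 3 WT libraries lay within the ErbB4 -/- range. The means were 201 ± 40.8 and 219 ± 14.7 CPM (SD, n = 4 each), with a log2 fold change of 0.12 (SE 0.13, 95% interval −0.15 to 0.40, edgeR adjusted p = 0.836, exact two-sided permutation p = 0.629). Without WT replicate 1 the sign changed, to −0.01 (SE 0.052, edgeR adjusted p = 0.972).

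WT replicate 1 was low for long transcripts in general. Wdfy3 has a longest transcript of 14274 bases, and in that library it lay 0.57 below its mean over all 8 libraries on the log2 scale. The median of the 274 tested genes with transcripts over 10000 bases lay 0.46 below in the same library, and between 0.0026 and 0.12 above the mean in the other 7. With each library's trend with transcript length removed, the log2 fold change of Wdfy3 was 0.01 (limma adjusted p = 0.961). Wdfy2 also lay 0.57 below its mean in WT replicate 1, although its transcript has 2011 bases, and its log2 fold change with the trend removed was 0.30 (limma adjusted p = 0.716). The part of RNA quality or of the library itself in these values was not tested.

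**Figure D3:**
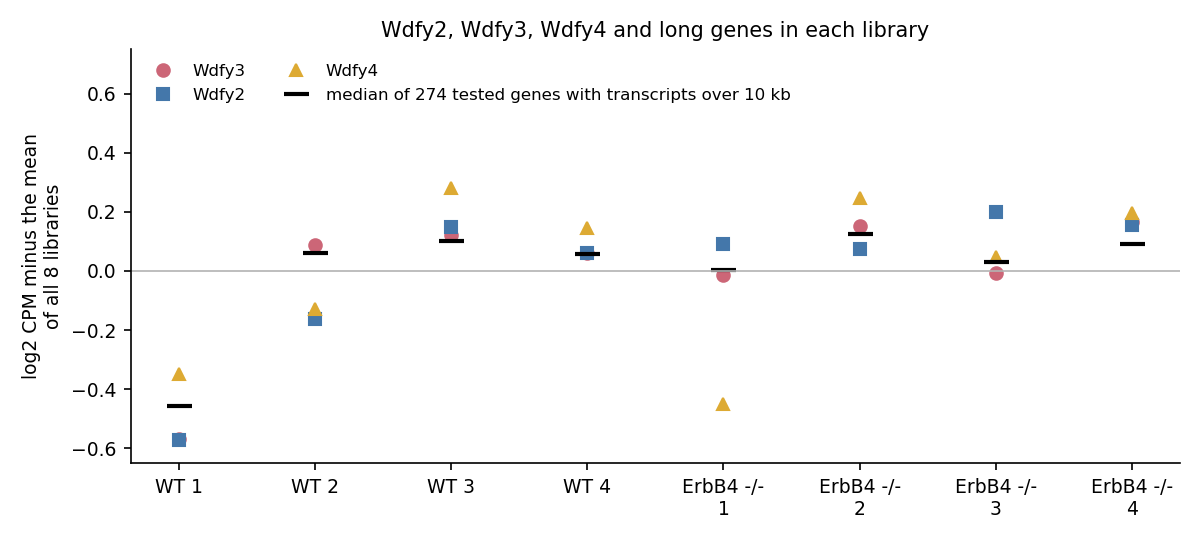
Deviation of log2 CPM from the mean of all 8 libraries (y axis) for Wdfy2, Wdfy3 and Wdfy4 and for the median of the 274 tested genes with transcripts over 10000 bases, in each library (x axis). Wdfy3 follows the long genes, with both far below 0 in WT replicate 1, and Wdfy4 is lowest in ErbB4 -/- replicate 1.

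Wdfy4 (ENSMUSG00000051506.10, minus strand, chr14:33772733-33998694) was near the lower limit of detection. WT replicates 1 to 4 held 16, 21, 35 and 29 reads of it, or 0.571, 0.674, 0.912 and 0.826 CPM. The ErbB4 -/- replicates held 26, 31, 30 and 27 reads, or 0.528, 0.890, 0.768 and 0.858 CPM. The groups overlapped throughout, and the exact 95% Poisson intervals of the lowest library (0.345 to 0.773 CPM) and the highest (0.635 to 1.27 CPM) overlapped too. These intervals cover counting error only. The log2 fold change was −0.0018 (SE 0.24, 95% interval −0.54 to 0.53, edgeR adjusted p = 0.999, exact two-sided permutation p = 0.943), and its sign changed with the setting. A change smaller than these bounds was not detectable at this depth. With only the 5 libraries of high Ddx3y, 1 of them WT, the log2 fold change was 2.34 for Wdfy1, 0.07 for Wdfy2, 0.02 for Wdfy3 and −0.13 for Wdfy4.

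Per length of transcript, the order of the genes in WT libraries was Wdfy3, Wdfy2, Wdfy1 and Wdfy4. On this scale, CPM per kb of the longest transcript, the WT means were 14.1 ± 2.86, 6.31 ± 1.32, 4.83 ± 0.232 and 0.0743 ± 0.0152 (SD, n = 4 each). Wdfy1 and Wdfy2 were neighbours whose libraries overlapped, while Wdfy3 and Wdfy4 stood apart from them in every library. In ErbB4 -/- libraries Wdfy1 came first at 24.5 ± 0.764 CPM per kb, before Wdfy3 at 15.4 ± 1.03, Wdfy2 at 7.44 ± 0.296 and Wdfy4 at 0.0759 ± 0.0163 (SD, n = 4 each), with no overlap between neighbours. The length of the transcripts expressed in this tissue is not known from gene counts, so these levels hold for the annotated lengths.

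Ratios within a library do not depend on its total. The per-length ratio of Wdfy1 to its near relative Wdfy2 was 0.996, 0.842, 0.643 and 0.685 in WT replicates 1 to 4 and 3.35, 3.52, 3.23 and 3.12 in the ErbB4 -/- replicates. The ratio of Wdfy3 to Wdfy1 was 2.90 ± 0.50 in WT and 0.627 ± 0.051 in ErbB4 -/- libraries (SD, n = 4 each), so the order of these 2 genes turned over between the genotypes. The ratio of Wdfy3 to Wdfy2 was 2.24 ± 0.211 against 2.07 ± 0.176 (SD, n = 4 each), with overlapping libraries. Shares of the 4 genes' summed CPM per kb were taken in each library and averaged. On average Wdfy1 made up 19.5% in WT and 51.8% in ErbB4 -/- libraries, and Wdfy3 made up 55.4% and 32.4%. The ratios that hold Wdfy1 repeat the difference it was chosen for.

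The difference at Wdfy1 was next examined against the genes around it. Mrpl44, which encodes a protein of the mitochondrial ribosome, lies head to head with Wdfy1, and 126 bases (chr1:79772593-79772718) belong to both genes through 1 Wdfy1 transcript with a remote first exon. The libraries did not keep the strand, so reads in these bases could come from either gene. Mrpl44 had 29.6, 23.5, 23.9 and 25.4 CPM in WT replicates 1 to 4 and 23.9, 23.8, 24.6 and 25.6 CPM in the ErbB4 -/- replicates. Its log2 fold change was −0.06 (SE 0.084, 95% interval −0.25 to 0.12, edgeR adjusted p = 0.863), and 0.01 without WT replicate 1. Levels of this neighbour overlapped between the groups, unlike those of Wdfy1, which was chosen for its rise.

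Serpine2, which encodes a serine protease inhibitor, lies 18.1 kb from Wdfy1 and had a log2 fold change of 0.17 (SE 0.093, edgeR adjusted p = 0.81). On the other side Ap1s3, a subunit gene of the AP-1 clathrin adaptor, lies 30.3 kb away and had 0.10 (SE 0.32, edgeR adjusted p = 0.956) at under 1 CPM in each library. Acsl3, Kcne4, Scg2, Cul3 and Dock10, also within 1 Mb, had log2 fold changes of −0.04, 0.08, −0.00077, 0.04 and 0.28. Fam124b had 0.571, 0.610, 0.652 and 0.598 CPM in WT replicates and 0.731, 0.919, 1.02 and 0.731 in ErbB4 -/- replicates, the only neighbour within 1 Mb whose groups did not overlap (log2 fold change 0.48, SE 0.22, edgeR adjusted p = 0.81). Of the 9 genes tested within 1 Mb, 6 were higher and 3 lower in ErbB4 -/- libraries, and their median log2 fold change was 0.08, against −0.0022 over all genes tested. That median was 0.01 without WT replicate 1, and then the log2 fold changes of Kcne4 (−0.02), Scg2 (0.0070), Mrpl44 and Cul3 (−0.0059) turned sign, while Acsl3 was at −0.01, Ap1s3 at 0.01 and Dock10 at 0.16. The median was also lower by more than 1.5 times without ErbB4 -/- replicate 1 (0.04), 3 (0.03) or 4 (0.03) or WT replicate 4 (0.05), and 0.14 without ErbB4 -/- replicate 2. With the length trend removed it was 0.03, with 8 of the 9 higher. It was 0.04 with limma-voom or the replicate block, and 0.02 over the 6 genes averaging 50 counts. With Xist as a covariate it was 0.11, and with the libraries of high Ddx3y alone 0.12. Over all genes, 49.2% had a log2 fold change above 0. None passed an adjusted p of 0.05 with edgeR, and 0 did with DESeq2 or limma-voom or at an unadjusted p under 0.05. Among all genes 0.0272% passed the adjusted threshold with edgeR or limma-voom and 0.163% with DESeq2. Groups that did not overlap were found in 3.34% of all genes, and in 1.86% with ErbB4 -/- higher.

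Within 5 Mb there were 53 tested neighbours, 29 higher and 24 lower, whose log2 fold changes had a median of 0.0042 and a range from −0.25 to 1.03. The upper end was Ccdc108, 4717 kb away, which had 1.69 CPM in ErbB4 -/- replicate 3 and from 0.107 to 0.417 in the other 7 libraries. None of these neighbours reached the log2 fold change of Wdfy1, which was chosen for its rise. The nearest tested genes of Wdfy2, Ints6 and Ctsb, had log2 fold changes of 0.01 and 0.0042, and −0.03 and 0.03 without WT replicate 1. Those of Wdfy3 had 0.13 (Cds1, 0.20 without WT replicate 1) and 0.41 (Arhgap24, groups not overlapping, edgeR adjusted p = 0.81). Those of Wdfy4 had 0.27 (E130203B14Rik) and 0.58 (Arhgap22, groups not overlapping, edgeR adjusted p = 0.81).

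**Figure D4:**
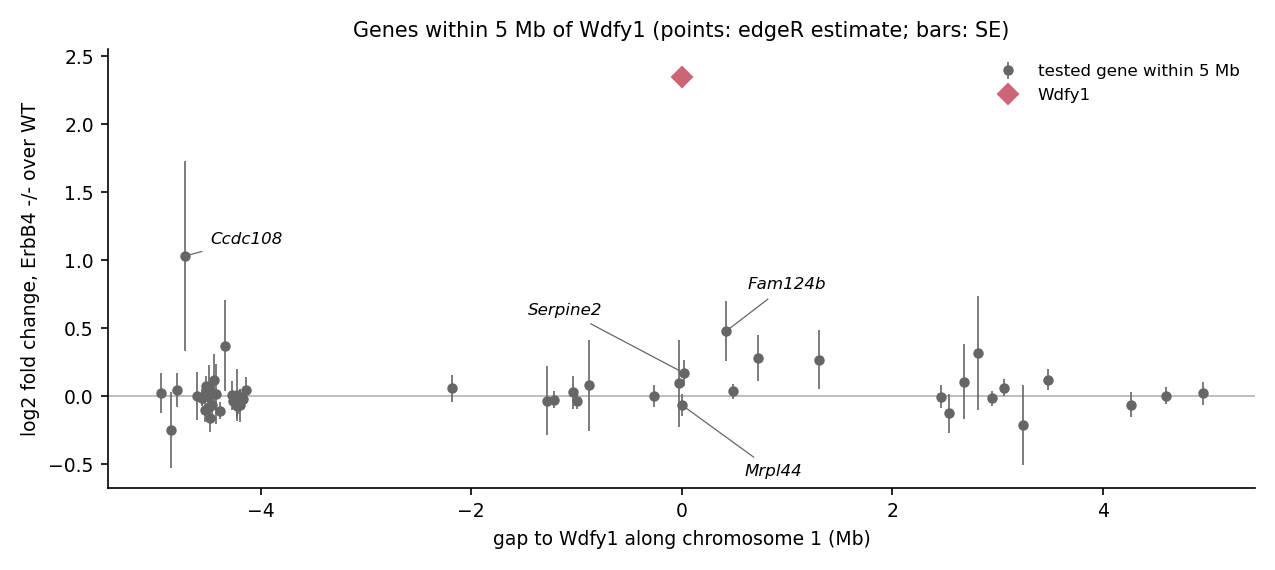
Log2 fold change of ErbB4 -/- over WT (y axis, edgeR estimate with SE) for Wdfy1 and the 53 tested genes within 5 Mb, by the gap to Wdfy1 in Mb (x axis, negative towards its 3′ end). Wdfy1, chosen for its rise, stands at 2.34. Mrpl44, which overlaps it, stands at −0.06 (0.01 without WT replicate 1), and the highest neighbour, Ccdc108, at 1.03.

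Genes that share the domains or pathways of the Wdfy proteins were counted in 7 lists, with 127 different genes tested. None passed an adjusted p of 0.05 with edgeR (0 also with DESeq2 and with limma-voom), and 4 (3.15%) had an unadjusted p under 0.05, 2 higher and 2 lower, against 5.53% of all genes tested (3% higher and 2.52% lower). With WT replicate 1 left out, 5 had one, 4 higher and 1 lower, against 5.93% of all genes, and the sign of the log2 fold change turned in 39 of the 127. Among the 26 other FYVE genes, 20 were higher in ErbB4 -/- libraries and the median log2 fold change was 0.05. Without WT replicate 1, 12 of the 26 were higher and the median was −0.01. Eea1, the endosome tethering factor, had a log2 fold change of 0.01 (SE 0.12). The smallest p in this list was that of Fgd2, an exchange factor for Cdc42, with 3.47 ± 0.349 CPM in WT and 4.36 ± 0.611 in ErbB4 -/- libraries (SD, n = 4 each, log2 fold change 0.34, edgeR adjusted p = 0.81). Next came Fgd4 at 0.19 and Zfyve21 at −0.14 on the log2 scale. These were at 0.11 and −0.07 without WT replicate 1, where Eea1 turned to −0.12 and Fgd2 was at 0.39.

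Of the 7 other BEACH genes, 5 were higher, and the median was 0.07 on the log2 scale. Without WT replicate 1, 2 of 7 were higher and the median was −0.06, and without WT replicate 2 it was 0.16. Nbea, which acts in membrane traffic of neurons, had 396 ± 70.7 CPM in WT and 434 ± 25.8 in ErbB4 -/- libraries (SD, n = 4 each, log2 fold change 0.13, edgeR adjusted p = 0.82). Lyst, the lysosomal trafficking regulator, had a log2 fold change of 0.12 (SE 0.20), Nbeal1 one of 0.18 (SE 0.20) and Nsmaf one of 0.07 (SE 0.067). With WT replicate 1 left out, Nbea was at 0.01, and Lyst (−0.10) and Nbeal1 (−0.03) turned sign. Like Wdfy3, these BEACH genes were on average lowest in WT replicate 1, at 0.48 below their mean over all libraries on the log2 scale.

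Genes that make and remove PI3P, the ligand of FYVE fingers, were 17, of which 14 were higher, and the list's median was 0.04 on the log2 scale. Without WT replicate 1, 11 of the 17 were higher and the median was 0.017, and without ErbB4 -/- replicate 4 it was also 0.017, and without WT replicate 3 it was 0.064. Inpp4a and Inpp4b, phosphatases that make PI3P, had log2 fold changes of 0.11 (SE 0.051, groups not overlapping, edgeR adjusted p = 0.81) and 0.29 (SE 0.21). Mtm1, a phosphatase that removes it, had −0.16 (SE 0.13). For Wdfy3, 28 genes of selective autophagy had a median of 0.0045, with 16 higher, and the median ran from −0.0083 to 0.017 with single libraries left out. Its partner Sqstm1, the p62 receptor, had 196 ± 18.2 CPM in WT and 186 ± 5.35 in ErbB4 -/- libraries (SD, n = 4 each, log2 fold change −0.07, edgeR adjusted p = 0.827), and its partner Traf6 had a log2 fold change of 0.02 (SE 0.072). Ulk2, a kinase that starts autophagy, had the smallest p of this list (log2 fold change 0.14, SE 0.052, edgeR adjusted p = 0.81), with groups that did not overlap. Among all genes tested, groups did not overlap in 1.86% with ErbB4 -/- higher. Atg5 had −0.14 and Gabarapl2 −0.13 on the log2 scale. These were −0.09 and −0.05 without WT replicate 1, where Sqstm1 had −0.0065, Traf6 −0.03 and Inpp4b 0.16.

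For Wdfy1, 21 genes from TLR3 and TLR4 to TRIF and its kinases were tested, and Cd14 did not pass the filter on low counts. Their median log2 fold change was −0.05, with 9 higher and 12 lower, and −0.0060 without ErbB4 -/- replicate 2 and −0.03 without WT replicate 4. The receptors Tlr3 and Tlr4 were low, at 1.78 ± 0.108 against 1.55 ± 0.179 CPM and 0.836 ± 0.163 against 1.06 ± 0.169 CPM in WT and ErbB4 -/- libraries (SD, n = 4 each), with log2 fold changes of −0.19 (SE 0.17) and 0.34 (SE 0.23). Ticam1 had a log2 fold change of −0.06 (SE 0.11). The 2 genes with an unadjusted p under 0.05 in edgeR were the transcription factors Irf3 (−0.18, SE 0.079) and Nfkb1 (−0.18, SE 0.073), both lower and both with an adjusted p of 0.81, beside 5.53% of all genes tested at such a p, 2.52% lower. Leaving out WT replicate 1 left 1 of these, Nfkb1, with Irf3 at −0.13 and no longer under that threshold, and Ticam1 at −0.11.

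Targets of that pathway were listed as 20 genes, of which 9 passed the filter, 7 of them higher in ErbB4 -/- libraries. The median of the 9 was 0.13 on the log2 scale, and 0.03 without ErbB4 -/- replicate 2. Ifit2 had 0.13 (SE 0.085) and Ifih1, a sensor of viral RNA, 0.25 (SE 0.34). Of the 11 below the filter, Ifnb1, the gene of interferon beta, had no read in any library, which allows up to 0.107 CPM. The 11 genes together had 17, 15, 25 and 14 reads in WT replicates 1 to 4 and 109, 164, 15 and 5 reads in the ErbB4 -/- replicates. That is 0.606, 0.481, 0.652 and 0.399 CPM against 2.21, 4.71, 0.384 and 0.159 CPM. ErbB4 -/- replicates 1 and 2 were thus above all WT libraries. Replicate 4 was below them, and replicate 3 only just, with 0.384 CPM against 0.399 in WT replicate 4. Those values stand for 15 and 14 reads, too few to tell apart. Wdfy1 was at 110, 115, 115 and 107 CPM in the ErbB4 -/- replicates, and a link of these targets with Wdfy1 was not tested. Usp18, an interferon-induced protease gene, had 5, 6, 10 and 2 reads in WT and 38, 66, 3 and 1 in ErbB4 -/- replicates. Ifit1 had 0, 0, 1 and 1 reads in WT and 17, 22, 2 and 0 in ErbB4 -/- replicates. In both genes ErbB4 -/- replicates 1 and 2 were above all WT libraries, but replicate 3 was not below them, with 0.0768 CPM of Usp18 against 0.0570 in WT replicate 4 and 0.0512 CPM of Ifit1 against at most 0.0285 in WT. These 2 genes and this sum were chosen after their values were seen.

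For Wdfy2, 20 genes of early endosomes and Akt signalling had a median of 0.02 on the log2 scale (0.0077 without WT replicate 1, 0.04 without WT replicate 2 or ErbB4 -/- replicate 1), and 12 were higher. Rab5a, the early endosome GTPase, had 89.1 ± 2.66 CPM in WT and 93.5 ± 0.402 in ErbB4 -/- libraries (SD, n = 4 each, log2 fold change 0.07, edgeR adjusted p = 0.81), with groups that did not overlap. Akt1 and Akt2 had −0.05 (SE 0.052) and 0.01 (SE 0.057), and Prkcz, the atypical kinase, had 0.14 (SE 0.071). Rab4a had −0.17 and Foxo1 0.17 on the log2 scale. Akt1, Akt2 and Foxo1 were at −0.01, −0.00083 and 0.09 without WT replicate 1. In that setting Prkcz was further from 0, at 0.18, with Rab5a at 0.07 and Rab4a at −0.15. Over the 7 lists the log2 fold changes ran from −0.32 (Ticam2) to 0.45 (Irf7). Wdfy1 at 2.34 lay outside that range, but it was chosen for its rise, so this is no separate result. Without WT replicate 1, Ticam2 was at −0.15 and Irf7 at 0.98. Groups did not overlap for Fgd2, Inpp4a, Ulk2 and Rab5a, all higher in ErbB4 -/- libraries, and for Nfkb1, which was lower. Among all genes 3.34% had such groups, and 1.86% with ErbB4 -/- higher.

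**Figure D5:**
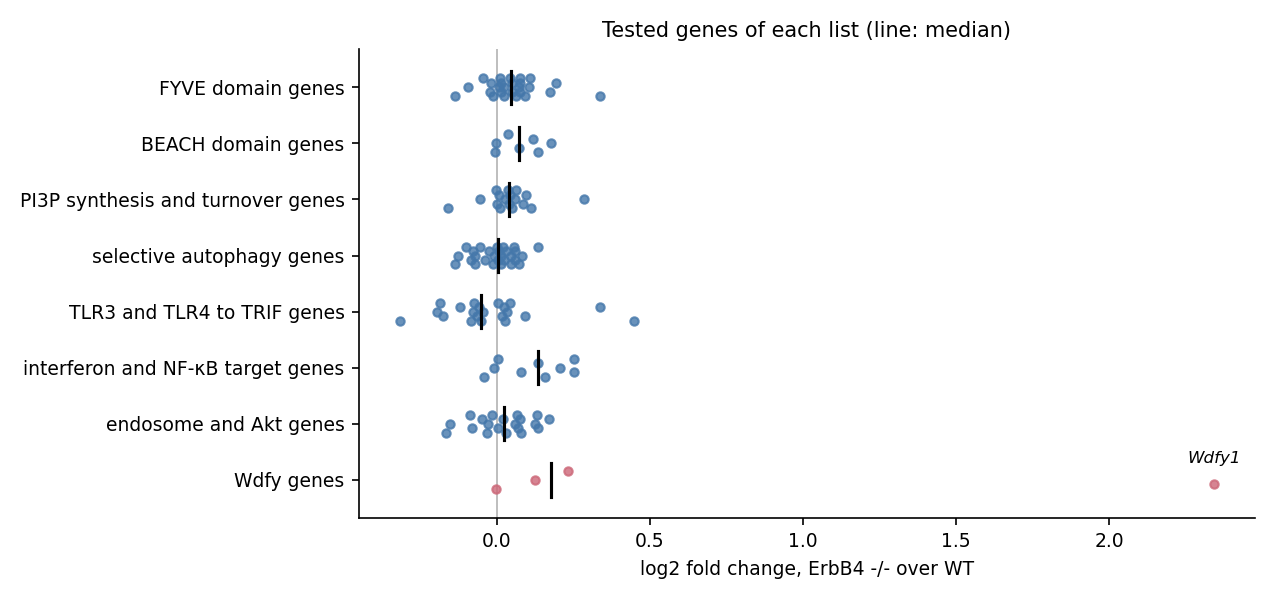
Log2 fold change of ErbB4 -/- over WT (x axis, edgeR estimate) for the tested genes of the 7 lists in blue and the 4 Wdfy genes in red, with each list's median as a line. The listed genes lie between −0.32 and 0.45 (Irf7, 0.98 without WT replicate 1), and Wdfy1, chosen for its rise, lies at 2.34.

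The tissue and its cell types were checked because Wdfy1 and Wdfy4 are known from immune cells. In bulk tissue, more cells of a type and more RNA per cell cannot be told apart. The 12 dorsal cortex markers were all detected, summing to between 4060 and 4638 CPM in WT and between 3907 and 4382 in ErbB4 -/- libraries. Of these 12, 2 were higher in ErbB4 -/- libraries, the median log2 fold change was −0.07, and 3 had an unadjusted p under 0.05 in edgeR (0 adjusted), against 5.53% of all genes tested, 2.52% in the lower direction. The 12 microglia markers summed to between 67.5 and 80.8 CPM in WT and between 69.6 and 79.3 in ErbB4 -/- libraries. Of the 10 dendritic cell markers, 3 passed the filter, and the 10 summed to between 10.3 and 11.8 against 11.1 and 12.1 CPM. Most of that sum was Zbtb46, with 6.63 to 8.73 CPM. Irf8 had 1.23 to 2.16 CPM and Batf3 0.563 to 1.14, while Flt3, Itgax, Xcr1, Clec9a, Cd74, H2-Aa and H2-Ab1 each had at most 0.431 CPM. Of the 5 B cell markers 0 passed, with sums of at most 0.464 CPM. Ganglionic eminence markers summed to between 579 and 769 against 562 and 778 CPM, and meningeal and vascular markers to between 143 and 153 against 140 and 151 CPM. Red blood cell markers summed to between 31.8 and 56.6 against 20.8 and 35.2 CPM, with Hba-a1 and Hba-a2 listed at 0 in every library. Of the 4 tested, 1 was higher, the median log2 fold change was −0.69, and 2 had an unadjusted p under 0.05 in edgeR (0 adjusted), beside the same 5.53% of all genes. The part of these cell types in the values above was not tested.

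The genes whose levels ran most like each Wdfy gene over the 8 libraries were ranked by Pearson's r of log2 CPM. For Wdfy1 these were Bcar3 (r = 0.941), Scamp1 (0.938), Corin (0.932), Gpr37 (0.930) and Wdr41 (0.929), a ranking that rests on the difference between genotypes. Their own log2 fold changes were 0.39, 0.10, 3.27, 0.66 and 0.15. With each genotype's mean taken out, the first 5 for Wdfy1 were Inpp5b, Edil3, Zfp46, Prkacb and Rgs6 (r from 0.981 to 0.985), none of them in the first ranking. For Wdfy2 the first was Zfyve20, another FYVE gene whose product acts with Rab5 on endosomes (r = 0.993), before Zfp862, Shisa6, Dnahc11 and Slc38a1. With genotype means taken out Zfyve20 was again first (0.991), followed by Shisa6, BC031353, Cul4a and Zfp862. With a prior count of 0.5 in place of 2, Dnahc11, at under 1 CPM in both group means, took the first place in both rankings (0.994 and 0.992) before Zfyve20.

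For Wdfy3 the most similar genes were Vps13d (r = 0.997), Htt, Klf12, Usp9x and Syt14. With genotype means taken out they were Igf2r (0.999), Pou2f1, Klf12, Vps13d and Htt. Of these, Vps13d, Htt, Usp9x and Pou2f1 have transcripts of 15740, 13215, 11887 and 13022 bases, and Igf2r, Klf12 and Syt14 have shorter ones of 8887, 5724 and 1904 bases. For Wdfy4, from 16 to 35 reads a library, they were Crybg3 (0.983), Cldn23, Cilp, Cyfip1 and Tigd2, and with genotype means taken out Crybg3 (0.984), Nr6a1, Gm10406, Cldn23 and Tigd2. Among the members, r was 0.859 for Wdfy2 and Wdfy3, 0.564 for Wdfy1 and Wdfy2, 0.655 for Wdfy3 and Wdfy4, 0.578 for Wdfy2 and Wdfy4, 0.359 for Wdfy1 and Wdfy3 and 0.057 for Wdfy1 and Wdfy4. The first of these rested on WT replicate 1: over the other 7 libraries, an alternative chosen after seeing the data, r was −0.075 for Wdfy2 and Wdfy3, 0.503 for Wdfy1 and Wdfy2, 0.717 for Wdfy3 and Wdfy4, 0.332 for Wdfy2 and Wdfy4, −0.127 for Wdfy1 and Wdfy3 and −0.187 for Wdfy1 and Wdfy4. For Wdfy1 and Wdfy2 with genotype means taken out, r was 0.486 over all libraries and −0.552 over these 7. The value of 0.503 over these 7 thus rested on the difference between genotypes. Over the same 7 libraries r was 0.964 for Wdfy2 and Zfyve20 and 0.971 for Wdfy3 and Vps13d. These correlations share the 8 libraries and their depth, were the highest of 14696 genes where they are ranks, and are given as a description.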

How the data were processed

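The authors mapped single-end reads of non-strand-specific polyA libraries to mm9 with HISAT and made raw gene counts with HTSeq-count. The deposited count files hold 1 whole number per gene symbol and library, not normalized. The annotation and counting mode are not given in the sources used here. The deposited DESeq2 table of the authors' own comparison was not used. Genotypes came from the labels. Nothing says that libraries come from separate litters, so p-values measure the spread between these libraries.

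Counts were tested with edgeR's quasi-likelihood F test (version 4.0.16, R 4.3.3) on all 8 libraries without covariates, after TMM scaling and the filterByExpr rule at 10 counts and 15 in total. All 4 Wdfy genes passed the filter. P-values were adjusted by the Benjamini-Hochberg method over the 14696 genes kept, and SE is the log2 fold change divided by the root of F. Single genes were also compared by the exact two-sided permutation test over the 70 assignments of libraries, whose smallest p is 0.0286. CPM are counts after TMM normalization, and log2 CPM have a prior count of 2. Lists are described by counts and medians.

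Gene positions and transcripts were those of GENCODE on NCBIM37 (mm9), which held 14392 of the tested genes by symbol. Exon windows of 50 bases were matched exactly to both strands of the genome, and proteins were translated from coding transcripts and aligned with Biopython 1.88. The members and lists were chosen with earlier results of these data known. Named genes are the members, in each list the 3 smallest unadjusted p and some named by role, the 5 highest correlations per member, the nearest tested gene on each side and those within 1 Mb of Wdfy1. One named item is not reported here. Ccdc108, Usp18, Ifit1, Ifnb1, Cd14, Hba-a1 and Hba-a2 were named after their values were seen.

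The alternatives were DESeq2 1.42.0, limma-voom (limma 3.58.1), upper-quartile or relative log expression scaling, all genes unfiltered or those averaging 50 counts, a block for replicate numbers, a covariate for Xist, the libraries with Ddx3y above Xist alone, removal of the length trend, a prior count of 0.5, 5 Mb around Wdfy1, and leaving out single libraries. The steps were tested on simulated data. Figures were drawn with matplotlib 3.10.9.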

Additional observations from a re-analysis of the deposited data

Results flagged for a closer look

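In 22 groups of 4 values (a Wdfy gene's CPM or a list's mean deviation in 1 genotype), a library was looked for that stood apart from the other 3 by Dixon's criterion, which chance meets in about 1 of 20 groups. Wdfy3 in WT replicate 1, at 140 CPM against 217 to 226 in the other WT libraries, met it. In the same library the mean log2 deviation of the FYVE domain genes was −0.17, that of the BEACH domain genes was −0.48 and that of the selective autophagy genes was 0.0773, each apart from the other WT libraries. In ErbB4 -/- replicate 1 the mean log2 deviation of the TLR3 and TLR4 to TRIF genes was 0.0733, apart from the other ErbB4 -/- libraries.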

How the results depend on the processing

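The log2 fold change of Wdfy1 kept its direction under all 18 alternatives (2.32 to 2.37), and that of Wdfy2 under all 18 (0.07 to 0.33, adjusted p 0.603 to 1.00). Wdfy3 reversed without WT replicate 1 (leave-one-out range −0.0142 to 0.186), and its adjusted p was 0.639 to 1.00. Wdfy4, at −0.0018, was positive with DESeq2 (0.0030), upper-quartile normalization (0.0069) and the replicate block (0.0204), ranged from −0.10 to 0.15 with 1 library left out (positive without ErbB4 -/- replicate 1, WT replicate 3 or WT replicate 4), and gave no value with a mean of at least 50 counts. The 4 genes past the adjusted threshold became 24 with DESeq2, 2 with the length trend removed, 1 each with relative log expression or upper-quartile normalization, the replicate block, Xist as a covariate or the libraries of high Ddx3y alone, and 1 to 13 with 1 library left out (13 without WT replicate 4). The causes were not tested. The labels do not say whether replicate numbers pair the libraries, and the values do not settle it. The deviations of same-numbered libraries correlated at 0.084, 0.13, 0.048 and 0.024 across genes, all above 0. Libraries of different numbers correlated at −0.19 to 0.15, and not every library correlated best with its own number. With the replicate block the log2 fold change was 2.34 for Wdfy1, 0.26 for Wdfy2 and 0.15 for Wdfy3. The lists' medians moved by less than 1 SD of the list's mean level between libraries of a genotype (WT replicate 1 included), but over the 18 alternatives by more than 1.5 times: −0.01 to 0.07 for FYVE, −0.06 to 0.16 for BEACH, 0.010 to 0.064 for PI3P, 0.0077 to 0.042 for endosome and Akt, −0.07 to −0.0060 for TLR3 and TLR4 and −0.0083 to 0.025 for selective autophagy genes. With the length trend removed, FYVE was at 0.0044, BEACH at 0.04, PI3P at 0.010, endosome and Akt at 0.0092 and TLR3 and TLR4 at −0.03. Signs turned for the FYVE median under 2 (without WT replicate 1, and −0.0051 with the libraries of high Ddx3y alone), the BEACH median under 3 (without WT replicate 1, −0.0136 with those libraries and −0.0053 with Xist as a covariate; 0.16 without WT replicate 2) and the selective autophagy median under 6 (the length trend removed, and without ErbB4 -/- replicate 1, 2 or 3 or WT replicate 3 or 4). The interferon and NF-κB target median fell to 0.0278 with Xist as a covariate and 0.0304 without ErbB4 -/- replicate 2, and was 0.252 with no filter. Of the 5 genes most like a member, at least 4 were shared with a prior count of 0.5. The few reads of Wdfy4 limit what its comparison can show.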
